A study of Homo sapiens with 3 samples.

Results

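The 37 genes described here are transcription factors of pluripotency, markers of stem cells, genes of the Notch and Wnt pathways and a pair of ID proteins. They were chosen by name, as the gene probes of the array that carry 1 of these names, and make up 37 of 43317 gene names on the array. The list holds 11 transcription and pluripotency factors, 8 stem cell markers and receptors, 8 Notch genes, 8 Wnt genes and 2 ID genes.

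RNA of 22RV1 cells, a human prostate cancer line that expresses the serine protease inhibitor SPINK1, was compared between SPINK1-silenced cells (22RV1-shSPINK1) and control cells with a scrambled hairpin (22RV1-shSCRM). The silenced cells carried 1 of 3 lentiviral hairpins, clones 419, 974 and 971, called hairpins 1, 2 and 3 here, and were kept in puromycin. Each hairpin was hybridized to 1 two-color array, with shSPINK1 RNA in Cy5 and shSCRM RNA in Cy3. The comparison asks whether RNA levels of stemness, Notch and Wnt genes differ when SPINK1 is silenced. The dyes were not swapped on any array, so a gene's dye effect and a hairpin effect cannot be told apart. Every array had shSCRM RNA as its control. The labels do not say whether it came from 1 culture; if it did, the spread between control cultures is part of no error given here. The shSPINK1 RNA of each array came from a different hairpin line, with 1 array per hairpin. A hairpin's own effect therefore cannot be told apart from variation between lines or arrays, and p-values measure the spread between these 3 arrays. A value is given as the log2 ratio of shSPINK1 over shSCRM, where negative means lower in SPINK1-silenced cells. In bulk RNA, fewer cells that express a gene and less RNA of it per cell cannot be told apart.

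Pluripotent stem cells are held in an undifferentiated state by a small circuit of transcription factors around SOX2, POU5F1 (OCT4) and NANOG. In the Notch pathway, a ligand on a neighboring cell triggers cleavage of the receptor, whose intracellular part joins the DNA-binding factor RBPJ and turns on HES and HEY repressors. In the Wnt pathway, ligands bind Frizzled and LRP receptors, beta-catenin escapes degradation and joins TCF and LEF factors on DNA. All of these are studied in prostate cancer as routes to lineage plasticity and to tumor-initiating cells.

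The array reads each gene through probes of 60 bases. Some of the genes with a single kept probe, or whose probes differ, are shown here with the first 30 bases of the probe. Others, among them MYC and CD44, are not shown. Coordinates come from the annotation that Agilent supplied with the array (hg19), followed by the strand and by where the probe starts on its transcript. The sequences follow the strand of the transcript, and all letters are lower case because no part of them stands out.
NOTCH3, chr19:15270489-15270548, minus strand, transcript base 7966: taatatggcttctggtcaaaatccctgtgt
SOX4, chr6:21598001-21598060, plus strand, transcript base 4029: ggcggctggttaatatctcacacagtttaa
KLF4, chr9:110248049-110248108, minus strand, transcript base 1957: cgttccagtgccaaaaatgcgaccgagcat
LEF1, chr4:108968746-108968805, minus strand, transcript base 3497: gcccaaaactgtcatcctaacgtttgtcat
KIT, chr4:55606511-55606570, plus strand, transcript base 4805: aaagtggttgttagttatagatgtctaggt
TBX3, brightest probe, chr12:115109654-115109713, minus strand, transcript base 3128: agagcatccagcggttggttagcggcttgg
TBX3, other probe, chr12:115108840-115108899, minus strand, transcript base 3942: ggggatttaaagggaaggagtgggcaaaac
CTNNB1, brightest probe, chr3:41281749-41281808, plus strand, transcript base 3529: tgatcaaaaactatttgggatatgtatggg
CTNNB1, other probe, chr3:41280687-41280746, plus strand, transcript base 2467: atgatggaacatgagatgggtggccaccac
The pairs differ in base composition. G and C made up 65.0% of the brightest TBX3 probe and 35.0% of the other, and 35.0% of the brightest CTNNB1 probe and 55.0% of the other.

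The knockdown was seen on every array. The log2 ratio of SPINK1 was -3.71, -3.65 and -3.89 with hairpins 1, 2 and 3. All 11 markers of prostate luminal epithelium were measured, none of 3 basal markers was, and 3 of 5 fibroblast, 2 of 4 endothelial and 3 of 4 leukocyte markers on the array were. The mean Cy3 brightness was 190 to 11500 among luminal markers, 47.9 to 468 among the fibroblast, 43.8 to 44.4 among the endothelial and 40.7 to 90.5 among the leukocyte markers. Of the luminal markers 5 were lower and 1 higher in shSPINK1 cells, against 8.72% and 4.77% of all genes tested, at an adjusted p under 0.05 by limma, and none of the other lineages' markers passed the test. The part of these differences in the values below was not tested. Readings of a probe are given as raw brightness, before the dyes were balanced, and Cy5 was the dimmer dye: the median ratio of all genes before loess was -0.29, -0.36 and -0.38. A Cy5 reading below its Cy3 reading is therefore not in itself a difference, and only the log2 ratio is compared.

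The 37 genes had 62 probes, and 41 were kept, meaning that they were well above background on every array in at least 1 of the dyes. These 41 probes measured 30 genes, and the brightest kept probe stood for a gene. All 30 passed this limit in Cy5 and in Cy3 on every array, so none entered through the brighter group alone. The other 7 genes were not well above background and have no ratio. They are NANOG, LIN28B and SALL4 among the pluripotency factors, PROM1 (CD133) among the stem cell markers, and JAG1, DLL1 and HES1 in the Notch pathway. Their 7 probes read 15.1 to 27.5 in Cy5 and 25.7 to 44.0 in Cy3, over a median local background of 15 in Cy5 and 19 to 20 in Cy3. SALL4 was above background in Cy5 on 1 array and in Cy3 on 2, and DLL1 and HES1 in Cy3 on 1 array each. Genes with near-identical copies elsewhere in the genome, as POU5F1, NANOG and NOTCH2 have, may share signal with them, and this was not tested.

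Among the 30 measured genes, 4 were lower and 2 higher in SPINK1-silenced cells at an adjusted p under 0.05 by limma with Benjamini-Hochberg adjustment over all 17059 genes. SOX4, NOTCH3, MYC and KLF4 fell and LEF1 rose. TBX3 was counted as higher through its brightest probe, while its other probe had the opposite sign. The 4 lower genes were 13.3% of the measured genes, against 8.72% of all genes tested. The 2 higher genes were 6.67%, against 4.77% of all genes. With counts this small, both shares lie near those of all genes. None of the 30 passed the same limma test with a mean also beyond 0.5, against 0.727% of all genes, and 8 of the 30 had an unadjusted p under 0.05, beside 29.8% of all genes. The median of the 30 genes was -0.02, beside -0.01 over all genes, and their means ran from -0.45 for NOTCH3 to 0.31 for LEF1. Of the 30 genes, 11 were lower on all 3 arrays, against 29.0% of all genes, 5 were higher on all 3, against 21.2%, and 14 differed in direction between arrays.

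The calls depended on the processing. Without background correction 3 were lower and 2 higher. With a background offset of 0 in place of 50, with the scanner software's own log ratios, with the deposited table of values or with a one-sample test that does not pool the spread over genes, none of the 30 passed, and 8, 7, 7 and 5 of them had an unadjusted p under 0.05, beside 4543, 4091, 3837 and 3019 of all genes. Under those 4 settings 4, 3, 3 and 0 genes of the whole array passed. With median centring of each array instead of loess, 18 were lower and none higher, while the median of all genes moved to -0.23. In that setting 10341 of all 17059 genes were lower and 91 higher.

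**Figure D1:**
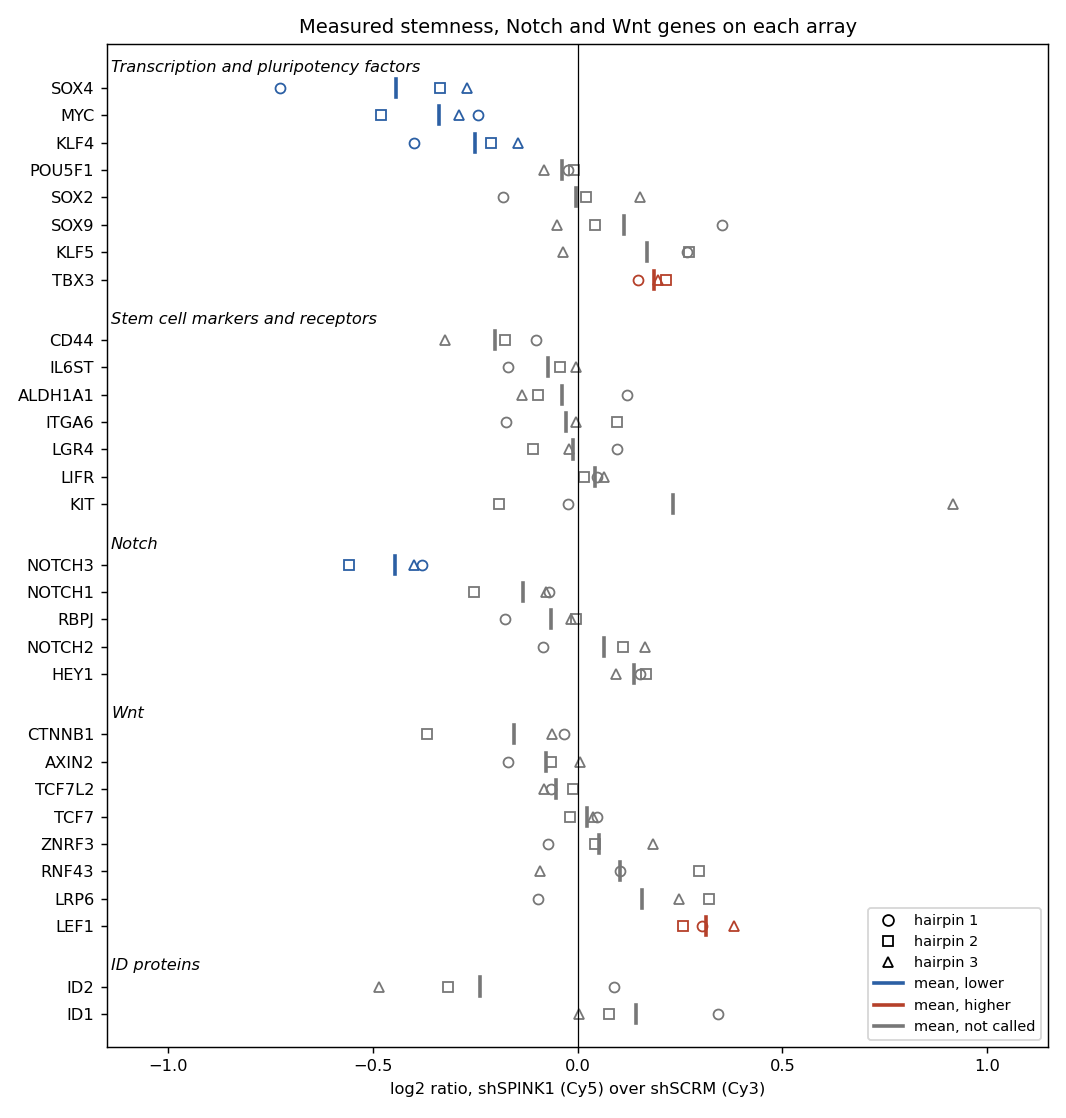
Log2 ratio of shSPINK1 (Cy5) over shSCRM (Cy3) on the horizontal axis for the 30 measured genes, grouped by role. Open symbols are the arrays of hairpins 1, 2 and 3, and the bar is their mean, blue for the 4 genes that were lower, red for the 2 that were higher and grey for the 24 that were not called; KIT with hairpin 3 lies at 0.92, apart from its other arrays.

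Among the transcription and pluripotency factors, 8 of 11 were measured and the median was -0.02. Of these 8, 3 fell, against 8.72% of all genes, and 1 (TBX3) was counted as higher, against 4.77%. With counts this small, the shares are no result about the group. SOX4, an SRY-related factor of progenitor cells that is often raised in cancers, fell the most in this group. Its log2 ratios were -0.73, -0.34 and -0.27, a mean of -0.44 ± 0.25 (SD, n = 3; SE 0.09; adjusted p = 0.0215 by limma). The probe read 135, 158 and 164 in Cy5 and 334, 307 and 309 in Cy3. The ratio was below 0 on every array, and hairpin 1 gave the largest difference. SOX4 stayed lower in the limma test without any 1 of the arrays.

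MYC, a driver of growth and proliferation that is also among the classical reprogramming factors, had log2 ratios of -0.24, -0.48 and -0.29, a mean of -0.34 ± 0.13 (SD, n = 3; SE 0.06; adjusted p = 0.0169 by limma). Its probe read 3998, 2891 and 3163 in Cy5 and 5964, 5654 and 5686 in Cy3, and the ratio was below 0 on every array. A second MYC probe was not well above background in either channel. KLF4, a zinc-finger factor that is likewise used in reprogramming, had log2 ratios of -0.40, -0.21 and -0.14, a mean of -0.25 ± 0.13 (SD, n = 3; SE 0.06; adjusted p = 0.0402 by limma). The KLF4 probe read 47.7, 49.6 and 53.5 in Cy5 and 106, 96.4 and 99.0 in Cy3. At such readings the offset of 50 draws the ratio toward 0, and the scanner software gave a mean of -0.52. MYC lost its call without hairpin 2 or without hairpin 3, and KLF4 without any 1 of the arrays.

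TBX3, a T-box repressor active in stem cell self-renewal, was read by 2 probes that differed in direction. The brightest gave 0.15, 0.22 and 0.20, a mean of 0.19 ± 0.04 (SD, n = 3; adjusted p = 0.0479 by limma), with readings of 255, 208 and 217 in Cy5 and 313, 262 and 281 in Cy3. The other gave -0.06, -0.29 and -0.28, a mean of -0.21, with a probe-level adjusted p of 0.0614 by limma. The probe that stood for TBX3 was thus higher on all 3 arrays and its second probe lower on all 3, and the mean of both was -0.01. A direction for the gene cannot be given from these probes.

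The core factors did not pass the test. SOX2, the SRY-related factor of neural and pluripotent cells, had a mean of -0.00 with a 95% interval from -0.17 to 0.16, and was -0.18, 0.02 and 0.15 with hairpins 1, 2 and 3. Its arrays fell on both sides of 0, at readings of 28.5 to 36.4 in Cy5 and 47.7 to 57.2 in Cy3. At such readings the background offset draws the ratio toward 0, so the interval of SOX2 does not exclude larger differences. The scanner software gave -0.83, 0.02 and 0.46 for SOX2, a mean of -0.12. POU5F1 (OCT4) had a mean of -0.04 with an interval from -0.15 to 0.08, and its second probe one of -0.02. SOX9, a factor of epithelial progenitors, was 0.35, 0.04 and -0.05, a mean of 0.11. KLF5, a zinc-finger factor of proliferating epithelium, was 0.27, 0.27 and -0.04, a mean of 0.17 with an adjusted p of 0.168 by limma.

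Of the stem cell markers and receptors, 7 of 8 were measured and the median was -0.03. None was called by limma at an adjusted p under 0.05, and 1 had an unadjusted p under 0.05, beside 29.8% of all genes. That 1 was CD44, the hyaluronan receptor used to sort prostate cells with stem-like properties. CD44 was -0.10, -0.18 and -0.32, a mean of -0.20 ± 0.11 (SD, n = 3; adjusted p = 0.0634 by limma), with readings of 944, 668 and 671 in Cy5 and 1340, 1100 and 1260 in Cy3. Without hairpin 1 it was -0.25 and passed the test (adjusted p = 0.0225 by limma). That drops the array with the smallest difference, so CD44 stays not called. Over all genes the calls also rose without it, from 1487 lower and 814 higher to 1936 and 1240. The brightest CD44 probe was lower on every array, while a second CD44 probe, with readings of 24.9 to 33 in Cy5 and 43.8 to 45.0 in Cy3, had a mean of 0.02.

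KIT, the receptor tyrosine kinase for stem cell factor, differed most between the hairpins. Hairpins 1 and 2 gave -0.02 and -0.19 and hairpin 3 gave 0.92, a mean of 0.23 ± 0.60 (SD, n = 3; adjusted p = 0.453 by limma). In Cy5 its probe read 35.2 and 23.0 with hairpins 1 and 2 and 81.1 with hairpin 3, whereas in Cy3 it read 55.8, 51.2 and 50.2. The Cy3 readings lay close together, and the hairpin 3 array alone had a Cy5 reading above them. Both other KIT probes, which lie nearer the start of the transcript, were not well above background, with hairpin 3 readings of 16.0 and 13.8 in Cy5. Without hairpin 3 the mean was -0.11.

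The remaining markers had means near 0 with the background offset. ALDH1A1, an aldehyde dehydrogenase whose activity marks progenitor cells, had a mean of -0.04, and ITGA6, the integrin alpha6 subunit of basal and stem cells, one of -0.03. LGR4, a receptor for R-spondins, had a mean of -0.01. The receptors of the interleukin-6 family, which signal through STAT3, had means of 0.04 for LIFR and -0.07 for IL6ST (gp130). IL6ST had 7 probes, of which 3 were kept. These had means of -0.07, 0.10 and 0.10, and 1 of the latter pair was well above background in Cy5 alone. The 24 genes that were not called had 95% intervals between -0.48 and 0.67, and without KIT the highest bound was 0.35. For 23 of these 24 the whole interval lay within 0.5 of 0. These intervals belong to ratios with the background offset, which draws the ratios of dim probes toward 0. For dim genes they therefore do not exclude larger differences. ITGA6, at readings of 22.5 to 25.9 in Cy5, was -0.18, 0.10 and -0.005 with the offset. In the scanner software's log ratios, which have no offset, ITGA6 was -0.88, 0.42 and -0.17. The means of ALDH1A1 and LGR4 there were -0.03 and 0.03.

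Of the Notch genes, 5 of 8 were measured and the median was -0.07. Of these 5, 1 fell, against 8.72% of all genes, and none rose, against 4.77%. Neither ligand of the list, JAG1 or DLL1, was well above background. NOTCH3, a Notch receptor of progenitors and vascular muscle that is also expressed in carcinomas, fell with every hairpin. Its log2 ratio was -0.38, -0.56 and -0.40, a mean of -0.45 ± 0.10 (SD, n = 3; SE 0.06; adjusted p = 0.0071 by limma), the lowest mean and adjusted p of the 30 genes. The probe read 588, 457 and 486 in Cy5 and 1030, 1000 and 973 in Cy3. The ratio was below 0 on every array, the scanner software gave a mean of -0.38, and NOTCH3 stayed lower in the limma test without any 1 of the arrays.

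The other Notch receptors did not pass the test. NOTCH1 was -0.07, -0.25 and -0.08, a mean of -0.13 with an adjusted p of 0.168 by limma, and its second probe also had a mean of -0.13. The scanner software gave a mean of -0.25 for NOTCH1. In the deposited table NOTCH1 and NOTCH3 both had a mean of -0.38. NOTCH2 was -0.08, 0.11 and 0.17, a mean of 0.06, and its second probe had a mean of 0.14. RBPJ, the DNA-binding partner of the cleaved receptor, had a mean of -0.07 and a second probe at 0.01. Of the target genes, HES1 was not well above background, and HEY1 was 0.15, 0.17 and 0.09, a mean of 0.14 ± 0.04 (SD, n = 3; adjusted p = 0.11 by limma), with readings of 73.5 to 85.6 in Cy5 and 98.3 to 109 in Cy3. HEY1 was thus higher on every array without passing over all genes. Whether NOTCH3 differed from NOTCH1 or NOTCH2 in its response was not tested.

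All 8 Wnt genes were measured and the median was 0.04. Of these 8, 1 rose, against 4.77% of all genes, and none fell, against 8.72%. LEF1, a DNA-binding partner of beta-catenin, had log2 ratios of 0.30, 0.26 and 0.38, a mean of 0.31 ± 0.06 (SD, n = 3; SE 0.05; adjusted p = 0.013 by limma). Its probe read 958, 739 and 858 in Cy5 and 1020, 890 and 971 in Cy3. The raw Cy5 readings were below the Cy3 readings of the same array, and the ratio was above 0 only after normalization by loess or by the scanner software. With median centring, LEF1 was -0.04 against -0.23 for all genes. The scanner software gave a mean of 0.36, and LEF1 lost its call without hairpin 3.

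CTNNB1, which encodes beta-catenin, was read by 2 probes of one direction and unequal size. The brightest gave -0.03, -0.37 and -0.06, a mean of -0.15 ± 0.19 (SD, n = 3; adjusted p = 0.211 by limma), with readings of 1781, 1127 and 1379 in Cy5 and 2358, 2091 and 2133 in Cy3. The other, which lies nearer the start of the transcript, gave -0.33, -0.41 and -0.33, a mean of -0.36 with a probe-level adjusted p of 0.00765 by limma, at readings of 159, 125 and 134 in Cy5 and 302, 263 and 270 in Cy3. Both probes were lower on all 3 arrays, but CTNNB1 is counted as not called because its brightest probe stands for it. With the mean of the probes in its place, CTNNB1 was -0.26 and was called lower (adjusted p = 0.0339 by limma).

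The other DNA-binding partners had means of 0.02 for TCF7 and -0.05 for TCF7L2, of whose 4 probes 1 was kept. AXIN2, a scaffold of the beta-catenin destruction complex and itself a common Wnt target, had a mean of -0.08 at readings of 33.1 to 33.7 in Cy5 and 54.2 to 62.8 in Cy3. LRP6, the coreceptor for Wnt ligands, was -0.10, 0.32 and 0.25, a mean of 0.16 with an adjusted p of 0.255 by limma, so that hairpin 1 had the opposite direction from the others. Without hairpin 1 the mean of LRP6 was 0.28 and passed the test (adjusted p = 0.0105 by limma). That drops the array of opposite direction, so LRP6 stays not called. Over all genes the calls also rose without it, from 1487 lower and 814 higher to 1936 and 1240. RNF43 and ZNRF3, ubiquitin ligases that remove Frizzled receptors from the cell surface, had means of 0.10 and 0.05, and a second ZNRF3 probe had a mean of -0.16.

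ID1 and ID2, inhibitors of basic helix-loop-helix factors, did not pass the test and differed between hairpins. ID1 was 0.34, 0.08 and 0.00, a mean of 0.14, with readings of 11800, 8210 and 7820 in Cy5 and 11400, 10800 and 11400 in Cy3. ID1 is 1 of the brightest 5% of genes, which had a median of 0.13 after loess and of -0.01 with the scanner software, and there ID1 itself was -0.02. ID2 was 0.09, -0.32 and -0.49, a mean of -0.24 ± 0.30 (SD, n = 3; adjusted p = 0.169 by limma), and its second probe was -0.10, -0.20 and -0.46. Both ID2 probes were lowest with hairpin 3 and closest to or above 0 with hairpin 1. Without hairpin 1 the mean of ID2 was -0.40 and passed the test (adjusted p = 0.00274 by limma). That drops the array of opposite direction, so ID2 stays not called. Over all genes the calls also rose without it, from 1487 lower and 814 higher to 1936 and 1240.

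**Figure D2:**
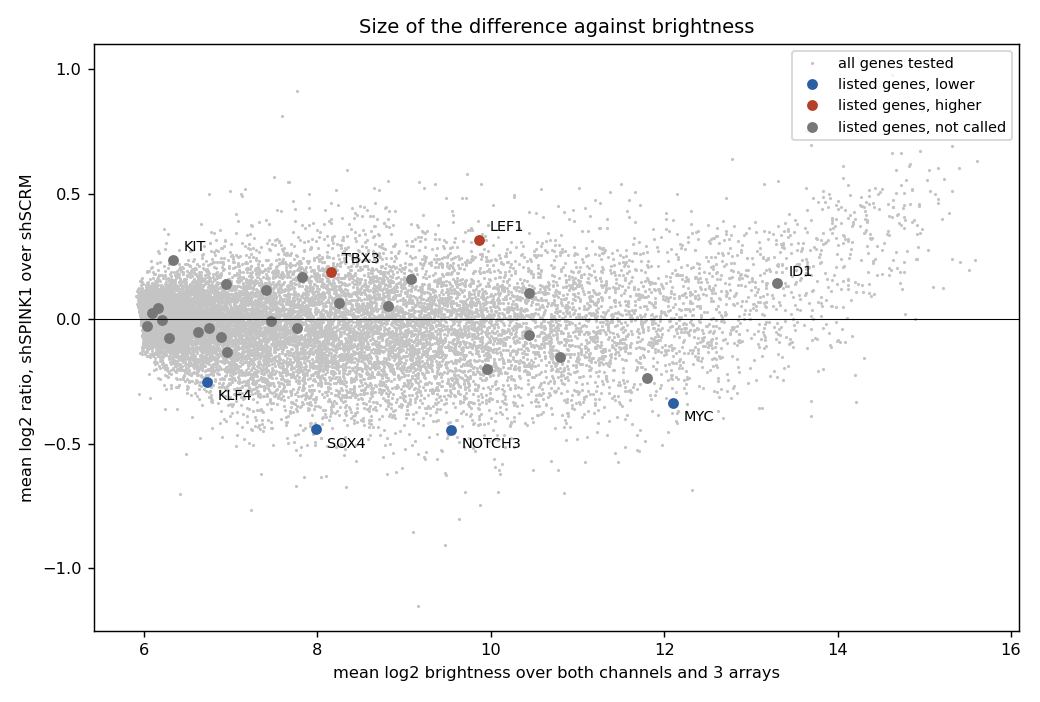
Mean log2 ratio over 3 arrays (vertical axis) against the mean log2 brightness of both channels (horizontal axis) for all 17059 genes tested (light grey) and the 30 measured genes of the list (large points, blue lower, red higher, dark grey not called). The listed genes lie within the cloud of all genes, from -0.45 to 0.31, and the brightest genes drift upward to a median of 0.13; 1 gene, SPINK1, lies outside the vertical axis.

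By single hairpin, the listed genes beyond 0.5 were SOX4 with hairpin 1, NOTCH3 with hairpin 2 and KIT with hairpin 3, 1 of 30 each. Over all genes the shares were 1.62%, 2.13% and 1.52%, for either direction. The number of the 30 genes below 0 was 18, 17 and 18 with hairpins 1, 2 and 3, and their medians were -0.05, -0.01 and -0.02, beside -0.02, -0.01 and -0.01 over all genes. The 3 ratios of a gene were all taken against shSCRM RNA.

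Of the 30 genes, 10 were read by more than 1 kept probe, and for 5 of these the means of the probes had 1 sign. For the other 5, CD44, IL6ST, RBPJ, TBX3 and ZNRF3, they differed in sign. The probe means of a gene were 0.00 to 0.40 apart, from NOTCH1 at the low end to TBX3 at the high end, whereas repeated spots of 1 probe on an array had a standard deviation of 0.06 in the log2 ratio. Which transcript forms the probes of a gene detect was not tested.

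**Figure D3:**
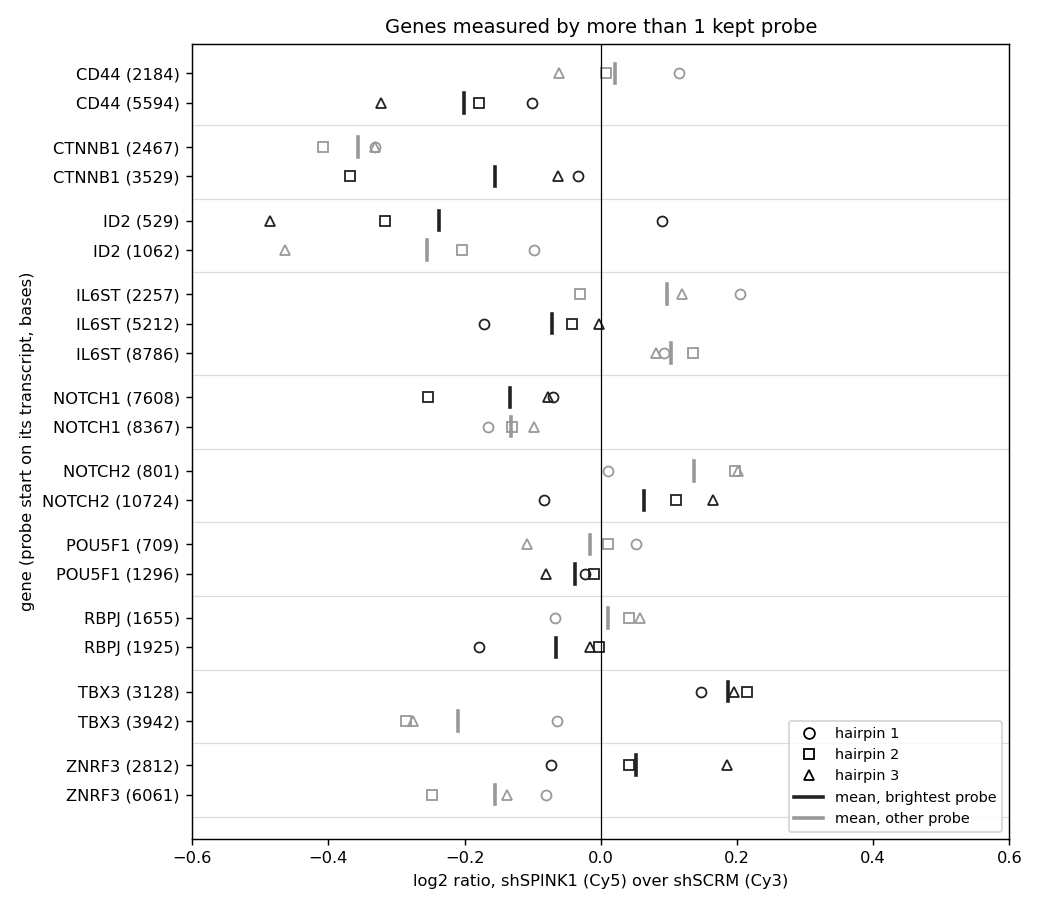
Log2 ratio of each kept probe (horizontal axis) for the 10 genes with more than 1 kept probe, with the probe's start on its transcript in bases in brackets. Symbols are hairpins 1, 2 and 3 and the bar is their mean, black for the brightest probe and grey for the others; the TBX3 probes lie on opposite sides of 0, at 0.19 and -0.21, while both CTNNB1 probes lie below 0.

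Some means moved with the source of the ratio. In the scanner software's log ratios, which have no offset, the mean of KLF4 was -0.52 instead of -0.25, that of AXIN2 -0.29 instead of -0.08 and that of HEY1 0.27 instead of 0.14. NOTCH3, MYC and LEF1 were -0.38, -0.38 and 0.36. ID1 moved from 0.14 to -0.02. All 6 called genes kept their sign there, and the KIT value with hairpin 3 became 2.23.

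**Figure D4:**
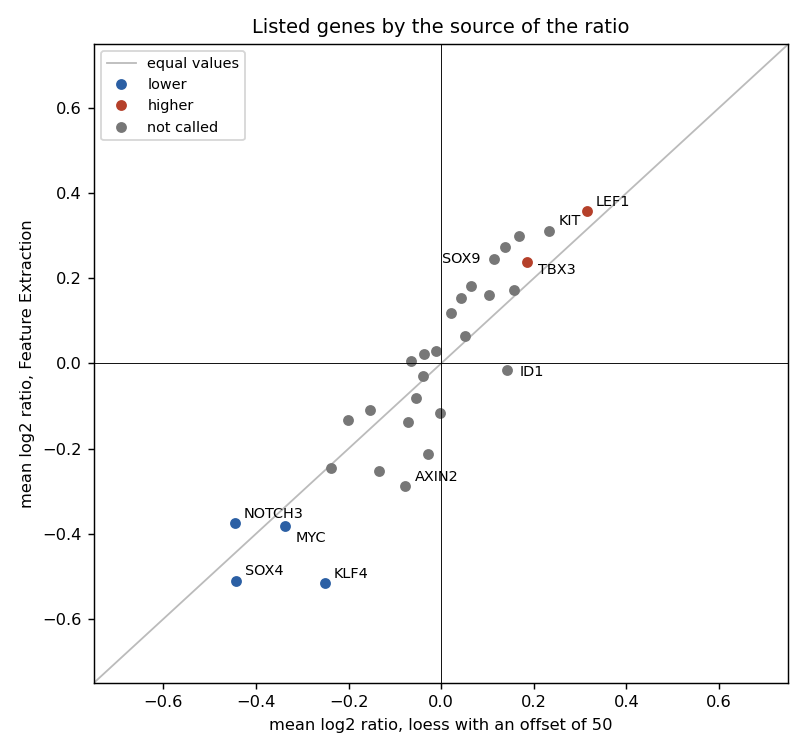
Mean log2 ratio of the 30 measured genes with loess and an offset of 50 (horizontal axis) and with the scanner software, Feature Extraction (vertical axis), against the line of equal values. Blue, red and grey points are genes lower, higher and not called; KLF4 moved from -0.25 to -0.52, and ID1 crossed 0.

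A further 220 genes of the same pathways were taken from lists written for this comparison, with earlier results of these data known. On the array were 218, and 140 were measured. Of the 140, 20 fell (14.3%, against 8.72% of all genes) and 2 rose (1.43%, against 4.77%), and their median was -0.08. As the lists were written with those results known, these shares are no independent result about the pathways. The Notch list had 7 lower and none higher of 47 measured genes (20 of the 47 had an unadjusted p under 0.05 by limma, beside 29.8% of all genes), with a median of -0.06. The Wnt list had 9 lower and none higher of 57 (27 had an unadjusted p under 0.05 by limma), with a median of -0.11. The list of other stem cell genes had 4 lower and 2 higher of 36 (16 had an unadjusted p under 0.05 by limma), with a median of -0.07. In this set 64 genes were lower on all 3 arrays, against 29.0% of all genes, and 20 higher on all 3, against 21.2%. As for the listed genes, none of the 140 passed with an offset of 0, with the scanner software, with the deposited table or with the unpooled one-sample test. The 20 lower genes became 6 without hairpin 2 and 2 without hairpin 3.

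In the Notch list, KAT2A, PSENEN and APH1A had the lowest means. KAT2A (GCN5), a histone acetyltransferase of the activating complex, was -0.41, -0.62 and -0.59, a mean of -0.54 (adjusted p = 0.00614 by limma), at readings of 2390, 1690 and 1730 in Cy5 and 4070, 3690 and 3850 in Cy3. PSENEN and APH1A are subunits of gamma-secretase, the protease that cuts the Notch receptor within the membrane. PSENEN was -0.25, -0.70 and -0.65, a mean of -0.54 (adjusted p = 0.0131 by limma), with the smallest difference for hairpin 1. APH1A was -0.47, -0.45 and -0.47, a mean of -0.47 (adjusted p = 0.00614 by limma), while a second APH1A probe had a mean of -0.17 and a probe-level adjusted p of 0.0776. KAT2A and PSENEN are the genes of the 220 that passed the test with a mean beyond 0.5. The called Notch genes with the smallest differences were KAT2B at -0.25, the glycosyltransferase RFNG at -0.20 and the corepressor CTBP1 at -0.20.

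In the Wnt list, the lowest means were those of FZD2 at -0.39, DVL2 at -0.31 and FZD3 at -0.31. Frizzled proteins are the receptors of Wnt ligands, and Dishevelled proteins carry their signal inward. FZD2 was -0.41, -0.31 and -0.45 (adjusted p = 0.00808 by limma), at readings of 57.9 to 64.7 in Cy5 and 132 to 141 in Cy3. The called Wnt genes nearest to 0 were DVL3 at -0.26, FZD1 at -0.24 and CHD8, a chromatin remodeler that binds beta-catenin, at -0.20. All of these were lower on all 3 arrays.

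Among the other stem cell genes, NES (nestin), an intermediate filament of neural progenitors, was -0.78, -0.32 and -0.15, a mean of -0.42 (adjusted p = 0.049 by limma), and its second probe had a mean of -0.24. PTCH1, the Hedgehog receptor, was -0.23, the epithelial adhesion protein EPCAM was -0.23, and the corepressor TRIM28 was -0.19. ITGB1, the beta1 integrin used to enrich epithelial stem cells, was higher at 0.28, 0.33 and 0.34, a mean of 0.32 (adjusted p = 0.0111 by limma). SMAD1, which carries bone morphogenetic protein signals, was 0.23, 0.20 and 0.19, a mean of 0.20 (adjusted p = 0.0352 by limma); with the arrays centred on their median it was -0.14 against -0.23 for all genes.

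**Figure D5:**
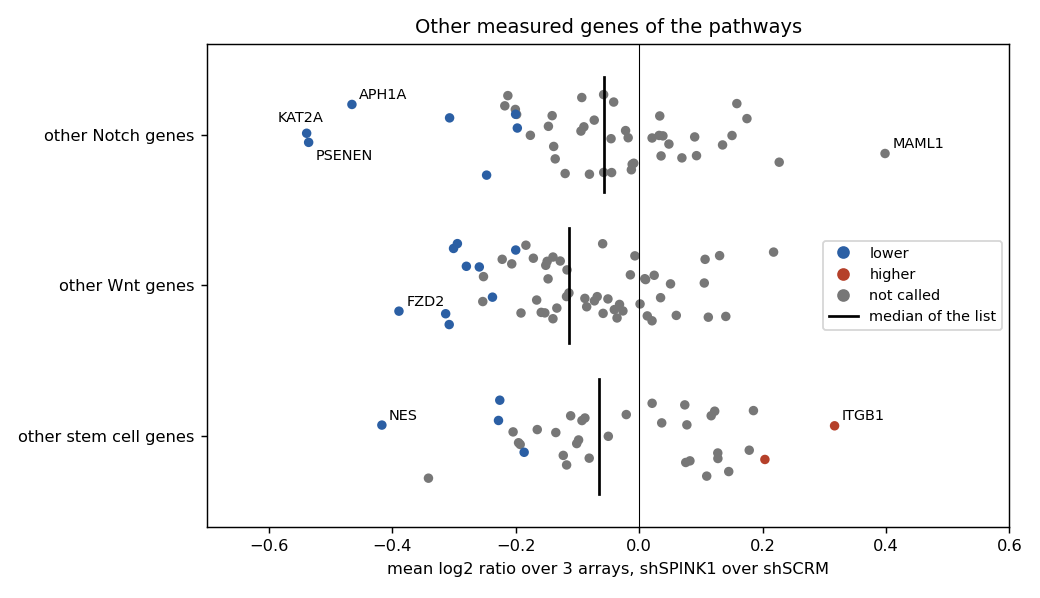
Mean log2 ratio over 3 arrays (horizontal axis) of the 140 measured further genes of the Notch, Wnt and stem cell lists, 1 point a gene, spread vertically only for legibility. Blue points were lower, red higher and grey not called, and the black bar is the median of each list, -0.06, -0.11 and -0.07; the lowest points are KAT2A and PSENEN, both at -0.54.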

How the data were processed

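The deposited scanner files hold the intensity of every spot and its local background in both channels, not normalized, and a log10 ratio (Cy5 over Cy3), which Agilent Feature Extraction 11.5.1.1 had corrected for background and dye by Lowess. The deposited table has 1 log2 value per gene name and array; for 99.991% to 100% of tested single-probe genes it matched the processed signals, as log2 of Cy5 over Cy3, to within 0.02, and its array medians were -0.12, -0.17 and -0.20. Gene spots well above background made up 41.3% to 46.8% in Cy5 and 38.8% to 42.6% in Cy3, and none was saturated. The number of arrays limits the precision.

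The intensities were corrected with normexp (offset 50), normalized by loess within each array without control spots or spots flagged as outliers, and averaged per probe in R 4.3.3 with limma 3.58.1. Of 58201 probes 21441 were kept, for 17059 genes. Mean log2 ratios were tested against 0 with limma. In a test on simulated data of this comparison, 90.5% of 200 genes given a log2 change of 1 were recovered and 4 unchanged genes were called, among 17059. The listed genes had smaller means, from -0.45 to 0.31, and recovery at such sizes was not tested. Of the names, 13589 matched the RefSeq table of GRCh38.p14, used for names only. The arrays shared 1 slide and 1 scan, and no batch was tested, and no 2 arrays held the same values.

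The members and lists were chosen with earlier results of these data known. Every listed gene is named, and from each further list the called genes beyond 0.5 and the 3 lowest and 3 highest means among those called. Alternatives covered background, normalization, source of values, filter, probe, test, threshold and each array left out.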

Additional observations from a re-analysis of the deposited data

How the results depend on the processing

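The 4 lower and 2 higher listed genes became 0 and 0 with an offset of 0, with Feature Extraction log ratios, with the deposited table, with the one-sample t-test and with a mean beyond 0.5, and 18 and 0 with median centring. The higher count was 1 with the mean of a gene's probes, where 5 were lower, and with an intensity trend in limma. Without background correction 3 were lower and 2 higher. Without 1 array the lower count ran from 2 to 5 and the higher from 0 to 3. The 20 lower and 2 higher further genes became 0 and 0 with an offset of 0, Feature Extraction, the deposited table and the t-test, 104 and 0 with median centring and 2 and 0 with a mean beyond 0.5. Without 1 array they ran from 2 to 23 and from 0 to 5. Over all genes 1487 and 814 became 3 and 1 with an offset of 0, 3 and 0 with Feature Extraction and the deposited table, 10341 and 91 with median centring, and 0 and 0 with the t-test (3019 at an unadjusted p under 0.05), and without replicates 1, 2 and 3 they were 1936 and 1240, 630 and 445, and 292 and 176. SPINK1, at -3.75, ran from -4.09 to -3.68 over the alternatives and passed in each but the t-test, where its adjusted p was 0.137. Of 14 alternatives SOX4 and NOTCH3 kept their call in 9, MYC and LEF1 in 7, and KLF4 and TBX3 in 4.

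The following means changed sign. With an offset of 0 LGR4 was 0.026. With Feature Extraction POU5F1 was 0.021, LGR4 0.028, RBPJ 0.0065 and ID1 -0.016. In the deposited table TBX3 was -0.027, LGR4 0.027, IL6ST 0.0033, RBPJ 0.037, ZNRF3 -0.12, ID1 -0.017 and HDAC2 0.033. With median centring, under which the median of all genes was -0.23 and the shift differed between genes, SOX9 was -0.15, KLF5 -0.13, TBX3 -0.13, LIFR -0.019, NOTCH2 -0.26, HEY1 -0.079, LEF1 -0.041, TCF7 -0.019, LRP6 -0.19, RNF43 -0.25, ZNRF3 -0.29, ID1 -0.18 and SMAD1 -0.14. With the mean of the probes TBX3 was -0.012, IL6ST 0.043 and ZNRF3 -0.052. Without 1 array, SOX2 ran from -0.081 to 0.085, SOX9 from -0.0048 to 0.20, ITGA6 from -0.091 to 0.046 (each turned without replicate 1), LGR4 from -0.065 to 0.038 (turned without replicate 2), KIT from -0.11 to 0.45, ALDH1A1 from -0.12 to 0.011 and ZNRF3 from -0.016 to 0.11 (turned without replicate 3). The cause of these changes was not tested. No paired analysis was possible because each array is a ratio to the control and all belong to 1 group. Probes near background limit the low genes, since the offset draws their ratios toward 0.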

Other observations

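Some families within the further lists were looked at after their values were seen, and are given as values only. Of the 10 Frizzled receptors 9 were measured, and 3 of them (FZD1, FZD2 and FZD3) were lower, against 8.72% of all genes tested. Of these 9, 8 had a mean below 0, with FZD5 at 0.05, beside a median of -0.01 over all genes. Of the 3 Dishevelled genes, DVL2 and DVL3 were lower, against the same 8.72% of all genes, and DVL1 had a mean of 0.00. As these families were picked by their values, their counts are no result about them. Of 19 Wnt ligands 6 were tested, none of which was called, with means from -0.12 to 0.14, and 4 of these passed the background limit in each dye on every array. Of the 4 R-spondins, ligands of LGR4, 1 was measured, at -0.15.

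Beside PSENEN and APH1A, which were lower, the gamma-secretase subunit APH1B had a mean of -0.06 and NCSTN one of 0.14, and neither passed the test. MAML1, a coactivator that binds the Notch intracellular part with RBPJ, was read by 2 probes that differed in direction. Its brightest probe was -0.08, 0.67 and 0.60, a mean of 0.40 with a probe-level adjusted p of 0.0915 by limma, and its other probe was -0.27, -0.29 and -0.22, a mean of -0.26 with one of 0.0178. MAML1 is 1 of the brightest 5% of genes, which had a median of 0.13 after loess. For its brightest probe the scanner software gave -0.29, 0.36 and 0.27, a mean of 0.11.

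Of the called genes that the naming rule left out, HDAC2 (-0.31), PYGO2 (-0.30) and CTNNBIP1 (-0.28) each had a second probe near 0, at 0.09, 0.02 and -0.03. TNKS, a tankyrase that acts on axin, had 1 probe at -0.29.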
